A study of Owenia fusiformis with 9 samples.

Results

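The blood vessel of adult male *O. fusiformis* was compared with the head plus chaetae, a sample also labelled male, in 1 RNA-seq library each. Of the 31911 transcripts in the deposited matrix, 17452 (54.7%), from 15692 of 26974 genes, had a normalized value of at least 50 in either library and make up the comparison. Of these, 8567 reached 50 in both libraries, 2955 in the blood vessel only and 5930 in the head plus chaetae only. The lowest member had a higher value of 50.02, and the transcript just outside had 49.86. Both tissues were dissected from untreated adults kept in artificial sea water. The blood vessel and the testis came from 1 male. The description of the dissections also names chaetae and muscle for that worm, so the head plus chaetae and the retractor muscle, both labelled male, are taken here to come from it, although no label states this. By the study's methods a head sample is the head with the 2 segments behind it, which is taken here as the head plus chaetae, while their list of tissues has a prostomium in its place. The other 7 libraries, which show where the differences recur, are ovary and midgut of 1 female, head and tail dissected from 5 females, a female body wall, and the testis and retractor muscle. Between the male and the female libraries, tissue, worm and sex cannot be told apart. In such whole tissues, fewer cells of a type and less RNA per cell cannot be told apart.

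Annelids have a closed circulation in which blood runs in spaces of the extracellular matrix between epithelia, and the contractile wall of the larger vessels is built by muscle cells of the body cavity lining. Oxygen is commonly carried by large haemoglobins dissolved in the blood itself. Chaetae are chitin bristles, each secreted by a cell at the base of an epidermal follicle, and the head of *O. fusiformis* bears a crown of ciliated tentacles for feeding. None of the transcript identifiers was found in the reference table of 27038 genes (0 matches), and the matrix does not pair them with names. Neither tissue label could therefore be checked against marker genes, no role is given for any transcript, and only 4 transcripts are named, as examples.

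The recovered depth was close to 14608988 reads in the blood vessel and 19034112 in the head plus chaetae, and between 16438522 and 22177997 in the other libraries. The normalized values summed to 13848990 in the blood vessel and 11420466 in the head plus chaetae, and 1 read was worth 0.948 and 0.600 on this scale in these libraries. The threshold of 50 thus stands for about 52.7 reads in the blood vessel and 83.3 reads in the head plus chaetae. The testis and the retractor muscle stand apart from the rest of the series. Their 10 most abundant transcripts took 77.4% and 66.5% of the summed values, against 7.34% to 16.1% in the remaining libraries, so that the main results resting on them are also given as shares of the summed values of each library (CPM). The 10 most abundant transcripts took 16.1% of the summed values in the blood vessel, against 10.4% in the head plus chaetae.

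Most transcripts differed widely between the blood vessel and the head plus chaetae. Among the 17452 transcripts, 4617 (26.5%) differed by less than 2-fold. A value at least 2-fold higher in the blood vessel was found for 5565 transcripts (31.9%), and a value at least 2-fold lower there for 7270 (41.7%). At 8-fold, the difference used in the rest of the text, 1956 transcripts (11.2%) were higher in the blood vessel and 3662 (21.0%) were lower. At 32-fold, 697 (3.99%) were higher and 1168 (6.69%) lower. The lower side was the larger in number at each of these folds, but the excess depended on the pseudocount. With 100 in place of 10, 855 transcripts were 8-fold higher and 898 were 8-fold lower, so that the excess was nearly gone. The median log2 ratio was -0.32, with quartiles of -2.65 and 1.53, and it ran from -13.36 to 11.60. The sign of this median depended on which transcripts were counted, as it was 0.36 over the 8567 transcripts that reached 50 in both libraries. The nearer 95% counting bound of the ratio without the pseudocount was past 8-fold for 1893 of the 1956 transcripts (96.8%) and 3572 of the 3662 (97.5%). For these transcripts the ratio without the pseudocount is the more extreme, so this check is more lenient than the 8-fold call itself. Differences between worms or dissections are not covered by these bounds.

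**Figure D1:**
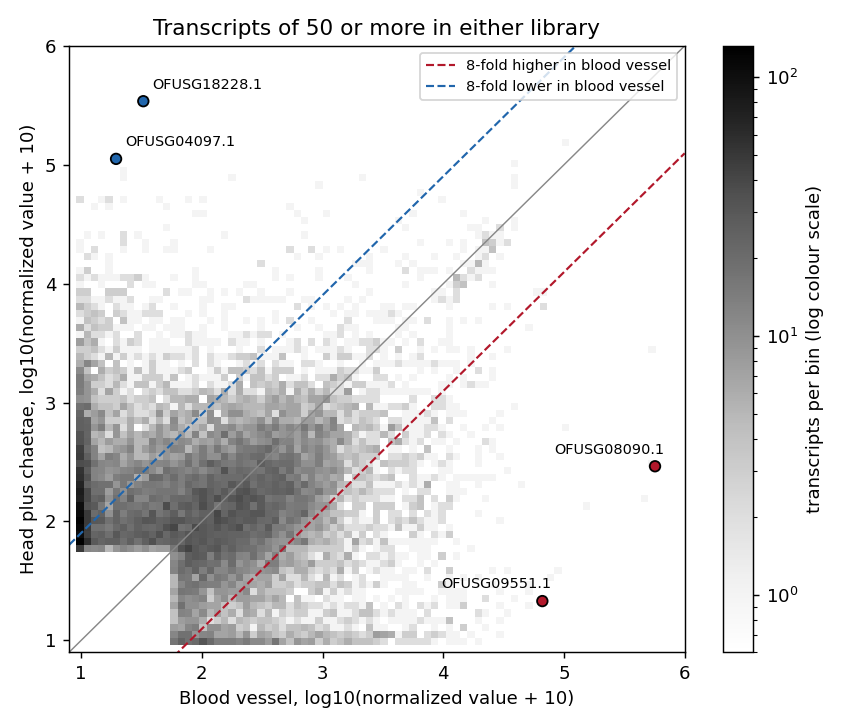
Normalized value + 10 of 17452 transcripts in the blood vessel (x axis) and the head plus chaetae (y axis), both on a log10 scale, with the number of transcripts per bin in grey. Dashed lines mark 8-fold differences, the solid line equal values, and points the 4 named transcripts. The blood vessel values of transcripts high in the head plus chaetae reach down to the left edge, where the pseudocount sets the position.

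The excess on the lower side was found in all groups by level but the highest. When the transcripts were divided into 5 groups of equal size by their summed value in both libraries, 4.07% of the lowest group were 8-fold higher in the blood vessel and 18.2% were 8-fold lower. The share higher in the blood vessel was larger in each following group, at 5.56%, 7.88% and 11.0%, and it reached 27.6% in the highest group, against 24.2% lower. The median log2 ratio moved with it, with -1.58 in the lowest and 0.67 in the highest group. In the highest group alone, more transcripts were 8-fold higher than 8-fold lower in the blood vessel. Of 69 transcripts with a value of at least 10000 in both libraries, 64 were within 2-fold. This choice favours small ratios, since it leaves out transcripts abundant in a single library. By contrast, 150 transcripts 8-fold higher in the blood vessel had at least 10000 there, and 94 of the lower ones had it in the head plus chaetae.

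**Figure D2:**
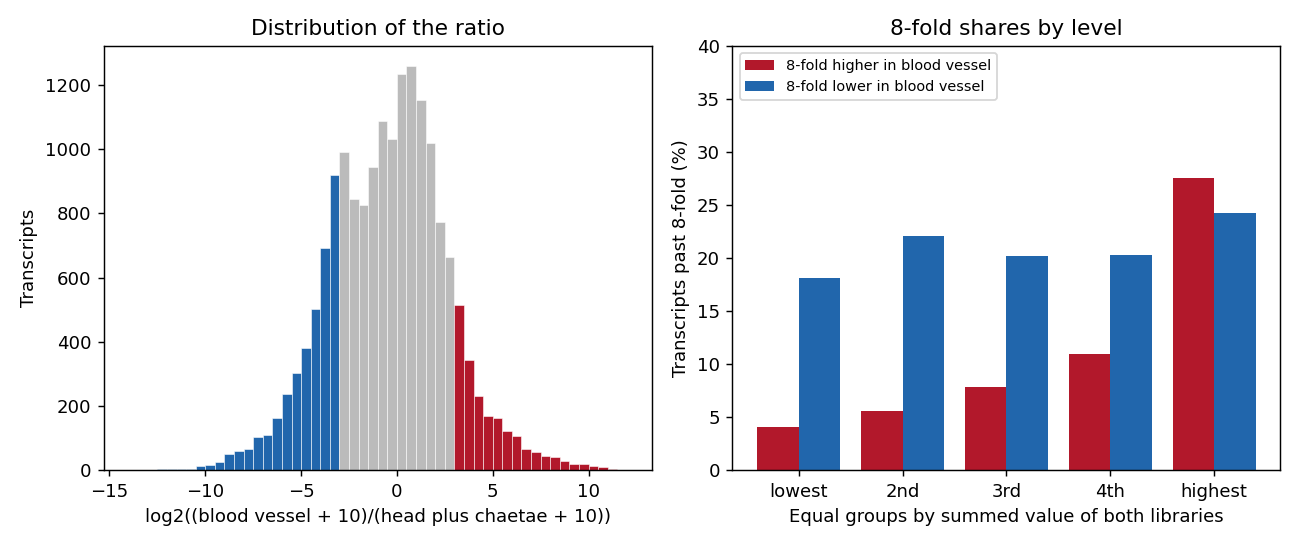
Left, number of transcripts by log2 ratio of blood vessel over head plus chaetae in bins of 0.5, with those at least 8-fold higher in the blood vessel in red and those at least 8-fold lower in blue. Right, percentage of transcripts past 8-fold in each of the 5 groups by summed value, from 4.07% to 27.6% for the higher and from 18.2% to 24.2% for the lower transcripts.

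The transcripts 8-fold higher in the blood vessel were fewer but more abundant in their own tissue than those of the opposite side. Their median value was 911 in the blood vessel and 19.8 in the head plus chaetae, and 150 of the 1956 exceeded 10000 in the blood vessel. Together they made up 56.2% of all values of the blood vessel library and 1.56% of the head plus chaetae library. The 3 most abundant accounted for 11.4% of the blood vessel library and the 100 most abundant for 30.0%. In the head plus chaetae 284 of them (14.5%) were listed at 0.

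OFUSG08090.1 was the most abundant transcript of the blood vessel, with 4.11% of its values. It had 568580 in the blood vessel and 281 in the head plus chaetae, followed by 234 in the ovary, 20584 in the testis, 8.62 in the midgut, 10193 in the retractor muscle, 164 in the head, 465 in the tail, with 52.9 in the body wall. The ratio of blood vessel to head plus chaetae was 2022 (95% counting interval, 1846 to 2217), and the log2 ratio with the pseudocount was 10.93. The next highest libraries were the male testis and retractor muscle, both far below the blood vessel. OFUSG09551.1 had the largest ratio of all, with a log2 ratio of 11.60. It had 66233 in the blood vessel and 11.4 in the head plus chaetae, followed by 2.73 in the ovary, 2134 in the testis, 0.662 in the midgut, 582 in the retractor muscle, 6.59 in the head, 5.02 in the tail, with 3.57 in the body wall. Its ratio of 5815 rests on 19 reads in the head plus chaetae, which gives a counting interval of 3720 to 9651. Again the testis and the retractor muscle came next, and the 5 female libraries had values below that of the head plus chaetae. Both genes have a single transcript in the matrix.

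The transcripts 8-fold lower in the blood vessel had a median value of 2.84 there and 332 in the head plus chaetae. In the blood vessel 1225 of the 3662 (33.5%) were listed at 0, a larger share than on the opposite side, and the blood vessel was also the library of lower depth. They took 0.613% of the values of the blood vessel and 51.6% of those of the head plus chaetae. In the head plus chaetae 94 of them exceeded 10000, the 3 most abundant held 4.80% of the library, and the 100 most abundant held 25.6%. The head plus chaetae side was thus spread over more transcripts, each with a smaller share.

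OFUSG18228.1 was the most abundant transcript of the head plus chaetae, with 3.002% of its values, and had the lowest ratio of all (log2 ratio, -13.36). It had 22.7 in the blood vessel and 342835 in the head plus chaetae. Elsewhere it had 23.9 in the ovary, 38.7 in the testis, 32.5 in the midgut, 1361 in the retractor muscle, 64.7 in the head, 79.0 in the tail, with 57.1 in the body wall. The female head, which carries no chaetae label, was therefore close to the blood vessel for this transcript. The head plus chaetae exceeded the blood vessel 15090-fold (95% counting interval, 10127 to 23519, from 24 reads in the blood vessel). OFUSG04097.1, the next most abundant transcript of this side, differed in that the female head shared its high level. It had 9.46 in the blood vessel and 112168 in the head plus chaetae, followed by 302 in the ovary, 851 in the testis, 24.5 in the midgut, 3315 in the retractor muscle, 80545 in the head, 1934 in the tail, with 1379 in the body wall. Its log2 ratio was -12.49, from 10 reads in the blood vessel, and the head plus chaetae exceeded the blood vessel 11856-fold (6434 to 24675). Both genes have a single transcript in the matrix.

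To see which other tissues follow the blood vessel, each library was placed on a scale from 1 (level of the blood vessel) to 0 (level of the head plus chaetae), and a transcript counted as on the blood vessel side above the midpoint of 0.5. For the transcripts 8-fold higher in the blood vessel, none of the 7 libraries had a majority on the blood vessel side. The ovary came closest, with 628 of 1956 transcripts (32.1%) and a median position of 0.23. It was followed by the midgut with 255 (13.0%), the testis with 243 (12.4%), the retractor muscle with 181 (9.25%), the head with 133 (6.80%), the tail with 107 (5.47%) and the body wall with 105 (5.37%). On the deposited scale the midgut differed from the other internal tissues in that its median position was 0.02, with 912 of the 1956 transcripts (46.6%) at or below the level of the head plus chaetae. On CPM its median position was 0.00041, and the testis (-0.16) and the retractor muscle (-0.09) lay lower. Once the 30 transcripts above 1% in some library were left out of the totals, this order did not hold. The median positions were then 0.0027 in the midgut, 0.0006 in the testis and 0.035 in the retractor muscle. The ovary also ranked above the other 6 libraries among the 3609 transcripts that were 2-fold to 8-fold higher in the blood vessel, with 57.8% on the blood vessel side, ahead of the testis at 32.1% and down to 17.4% in the body wall. On CPM the testis had 0.763% of such transcripts on the blood vessel side, and 6.18% once those 30 transcripts were left out.

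The ovary remained the highest of the 7 libraries under each of the alternatives tried for this measure, with 13.6% to 42.0% of the transcripts on the blood vessel side. The shares of the testis and the retractor muscle depended on the scale. On CPM, in which their dominant transcripts weigh on all others, the testis had 0.868% and the retractor muscle 1.85% of the transcripts on that side, with median positions of -0.16 and -0.09, against 0.20 and 0.14 on the deposited scale. Once the 30 transcripts above 1% in some library were left out of the totals, the testis had 3.55% and the retractor muscle 5.44%. With a 2-fold definition, in which a library had to reach at least 0.5 times the blood vessel value after adding the pseudocount, the ovary had 18.7%, the midgut 8.44%, the testis 4.09% and the retractor muscle 3.99% of the transcripts.

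**Figure D3:**
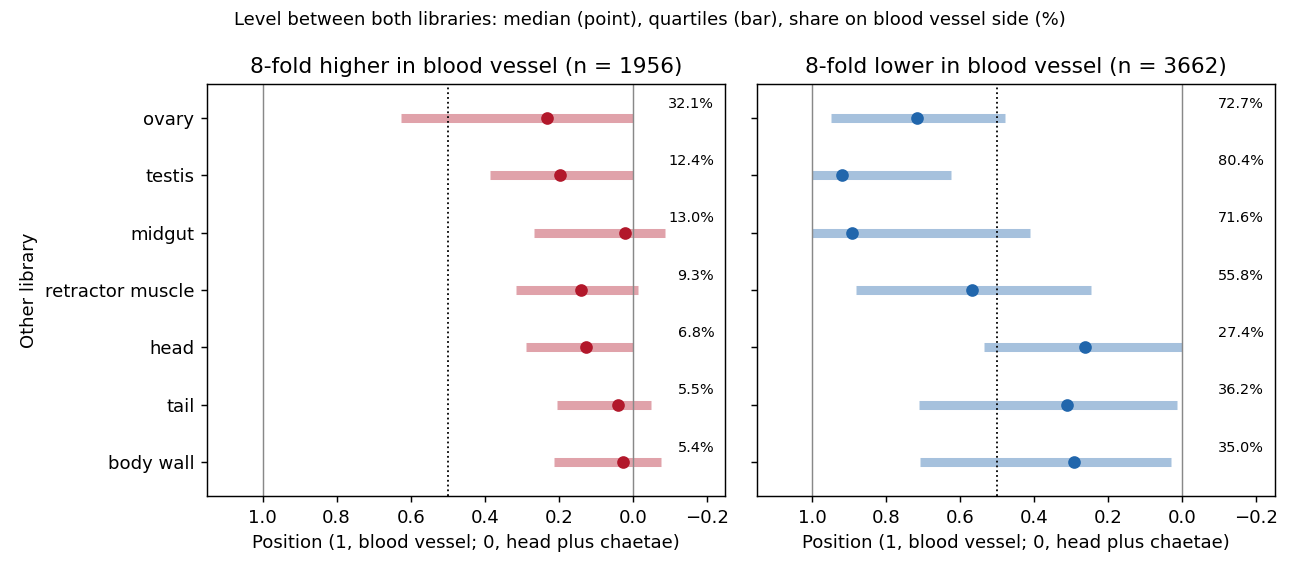
Position of the other 7 libraries between the blood vessel (1) and the head plus chaetae (0) on log2(value + 10), for transcripts 8-fold higher (left, n = 1956) and 8-fold lower (right, n = 3662) in the blood vessel. Points are medians over transcripts, bars run between the quartiles, the dotted line is the midpoint, and percentages give the share of transcripts on the blood vessel side, which is highest in the ovary (32.1%) on the left and in the testis (80.4%) on the right.

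About as many transcripts higher in the blood vessel had no other library past the midpoint as had at least 1. A library past the midpoint can still lie well below the blood vessel. For 985 of the 1956 (50.4%) none of the other 7 libraries lay on the blood vessel side, and for 594 (30.4%) only 1 did. The 985 transcripts had a median of 1581 in the blood vessel and 21.0 in the head plus chaetae and held 29.3% of the blood vessel library. In 3 transcripts all 7 libraries lay on the blood vessel side, that is, the head plus chaetae alone was low. By a stricter measure, 707 transcripts (36.1%) were at least 8-fold above each of the other 8 libraries, with a median of 2696 and 40.7% of the values of the blood vessel. Only 117 transcripts stood out in this way in the head plus chaetae, with a median of 542 and 5.96% of its values.

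Among the groups with a single other tissue on the blood vessel side, the largest was that of the ovary. It held 359 transcripts (18.4%), with a median of 733 in the blood vessel, 36.0 in the head plus chaetae, with 412 in the ovary, and between 49.7 and 74.8 in the other libraries. Over all 628 transcripts on the ovary side the medians were 620 in the blood vessel, 27.6 in the head plus chaetae, with 379 in the ovary, and in 140 of them the ovary exceeded the blood vessel. These are transcripts shared by vessel tissue and an organ of another worm of the other sex. For the midgut alone the group held 80 transcripts, with medians of 379 in the blood vessel, 3.60 in the head plus chaetae, with 1043 in the midgut, so that here the midgut level was above that of the blood vessel. In all, 126 of the 1956 transcripts were higher in the midgut than in the blood vessel.

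The group with the testis alone on the blood vessel side was small in number but abundant, and was largely lost on CPM. Its 87 transcripts held 16.6% of the blood vessel library, with medians of 8815 in the blood vessel, 8.99 in the head plus chaetae, with 486 in the testis. With the head plus chaetae so low, the midpoint of these transcripts lay far below the blood vessel value. The testis passed it on the deposited scale, although the testis median was far below that of the blood vessel. Whether the testis passed it depended on the scale. On CPM the testis was on the blood vessel side for 0 of these 87, and once the 30 transcripts above 1% in some library were left out of the totals, for 7. Groups with the head alone (39 transcripts) and the retractor muscle alone (27) were smaller.

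**Figure D4:**
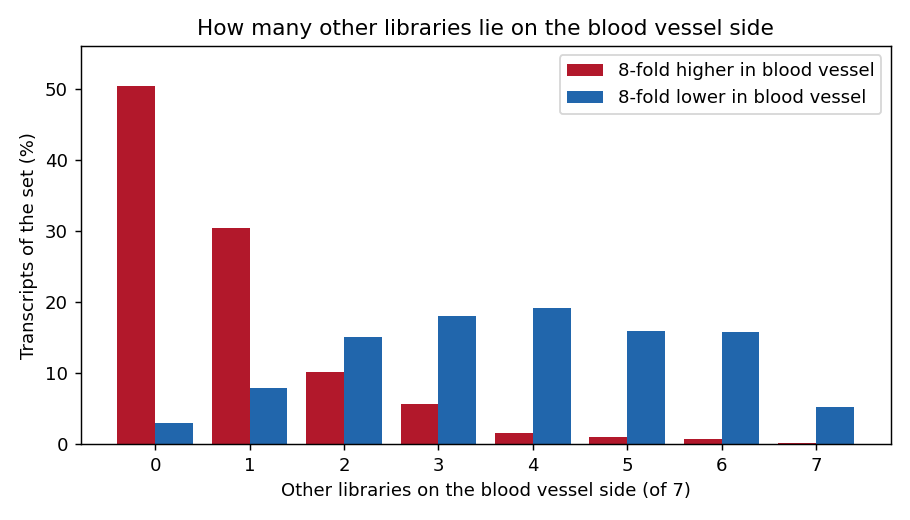
Percentage of transcripts by the number of the other 7 libraries on the blood vessel side, for transcripts 8-fold higher (red, n = 1956) and 8-fold lower (blue, n = 3662) in the blood vessel. The higher transcripts peak at 0 libraries (50.4%), and the lower transcripts at 4 (19.2%).

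Among the 3662 transcripts 8-fold lower in the blood vessel, each internal tissue followed the blood vessel for a majority and each part of the outer body for a minority. Fewer transcripts showed the whole division. All 4 internal libraries were on the blood vessel side for 1312 (35.8%). For 372 (10.2%) these 4 were there and all 3 outer libraries were on the head plus chaetae side. The testis was on the blood vessel side for 2945 transcripts (80.4%), the ovary for 2662 (72.7%), the midgut for 2623 (71.6%) and the retractor muscle for 2044 (55.8%). The tail was on that side for 1324 (36.2%), the body wall for 1281 (35.0%) and the head for 1005 (27.4%). The low level of the testis and the midgut was nearly that of the blood vessel, with median positions of 0.92 and 0.89, whereas the ovary lay at 0.72 and the retractor muscle, close to the midpoint, at 0.57. The testis level rested on few reads, as 1 read was worth 5.53 there. Its median value for these transcripts was 11.1, and 1450 of them (39.6%) were at 0. The head, tail and body wall had median positions of 0.26, 0.31 and 0.29. Under the 2-fold definition, which here puts a library on the blood vessel side wherever it is below 0.5 times the head plus chaetae value, all 7 libraries had a majority on the blood vessel side, from 53.9% in the head to 90.4% in the ovary, so that the division between internal tissues and outer body is a matter of degree. On CPM, the testis was on the blood vessel side for 95.2% and the retractor muscle for 87.0% of the lower transcripts, and the median position of the retractor muscle was 0.89. Once the 30 transcripts above 1% in some library were left out of the totals, the shares were 87.5% and 66.5%. The median position of the retractor muscle was then 0.68. Among the 3608 transcripts 2-fold to 8-fold lower in the blood vessel, the midgut was on the blood vessel side for 42.3%, below the 52.3% of the retractor muscle.

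The lower transcripts fell into patterns by which parts of the outer body lay on the head plus chaetae side. The largest comprised 1654 transcripts (45.2%) for which the head, the tail and the body wall all lay on the head plus chaetae side. Their medians were 3.80 in the blood vessel and 395 in the head plus chaetae, 305 in the head, 354 in the tail, with 318 in the body wall, and they held 21.3% of the head plus chaetae library. In a further pattern of 573 transcripts (15.6%) only the head was on that side, with medians of 1.89 in the blood vessel, 335 in the head plus chaetae, 274 in the head, 7.83 in the tail, with 5.96 in the body wall, and 10.2% of the library. Of these, 409 had the other 6 libraries on the blood vessel side. The pattern of the tail and body wall without the head held 343 transcripts (9.37%), with medians of 2.84 in the blood vessel, 332 in the head plus chaetae, 29.3 in the head, 255 in the tail, with 350 in the body wall. Here the head plus chaetae was like the trunk and not like the female head.

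In 367 of the lower transcripts (10.02%) the head, the tail and the body wall all lay on the blood vessel side, and 190 (5.19%) had all 7 libraries there, so that the head plus chaetae alone was high. These 190 had a median of 208 in the head plus chaetae and 4.77% of its values. The opposite case, in which the blood vessel alone was low, was found for 111 transcripts (3.03%), with a median of 16.1 in the blood vessel and 404 in the head plus chaetae. In 28 transcripts the blood vessel was at least 8-fold below each of the other 8 libraries. By this 8-fold measure the blood vessel stood apart by a high value (707 transcripts) more often than by a low value. The same held for the head plus chaetae, with 117 transcripts above and 0 below each other library. The measure itself favours high values, since a low value stands out only if each other library is well above the pseudocount of 10.

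The summed values, which count reads and are not divided by transcript length, gave a similar division for the lower transcripts. The 1956 transcripts higher in the blood vessel made up 56.2% of the blood vessel, against 1.56% of the head plus chaetae, and among the other libraries 11.1% of the midgut, 9.15% of the ovary, 3.64% of the head, 2.39% of the body wall, 2.17% of the tail, 1.36% of the retractor muscle and 1.27% of the testis. Most of the midgut and ovary shares came from the transcripts on the blood vessel side, which made up 9.35% of the midgut and 7.07% of the ovary. The 3662 lower transcripts made up 0.613% of the blood vessel, 51.6% of the head plus chaetae, 41.7% of the body wall, 39.9% of the tail and 33.2% of the head. They took 11.8% of the retractor muscle, 10.3% of the midgut, 7.19% of the testis and 7.12% of the ovary. In the testis and the retractor muscle, such shares depend on the dominant transcripts of these libraries. The lower set itself held transcripts abundant there. Among its 94 transcripts with at least 10000 in the head plus chaetae, values reached 10033% of the head plus chaetae value in the testis. In the retractor muscle they reached 2736%.

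**Figure D5:**
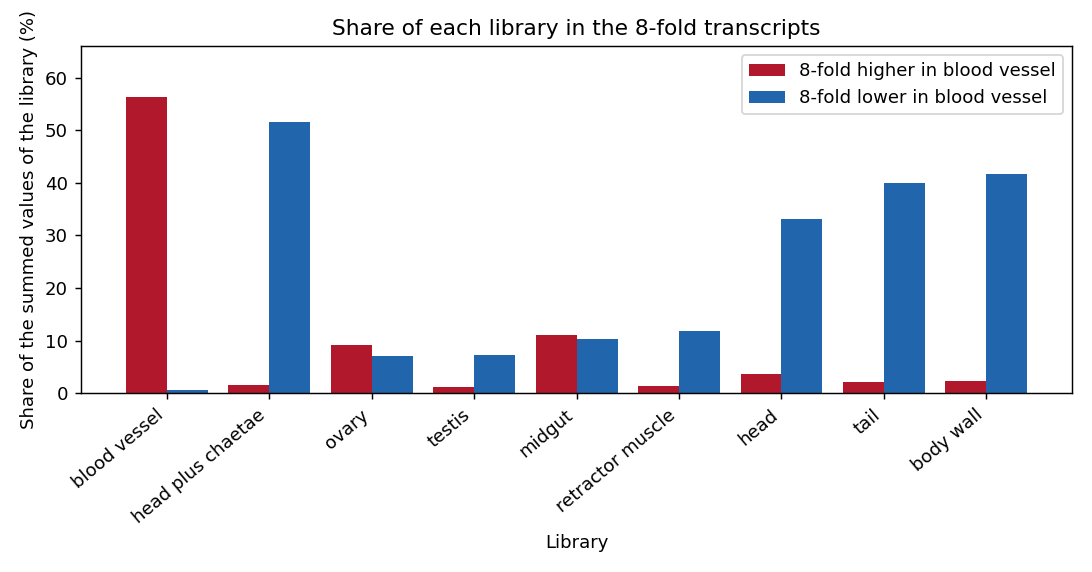
Share of the summed normalized values of each library taken by transcripts 8-fold higher (red) and 8-fold lower (blue) in the blood vessel. The red bars are 56.2% in the blood vessel and at most 11.1% elsewhere, and the blue bars are 51.6% in the head plus chaetae and 33.2% to 41.7% in the head, tail and body wall.

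Isoforms of the same gene sometimes differed in opposite directions. Of 1456 genes with at least 2 transcripts in the comparison, 244 (16.8%) had an isoform at least 2-fold higher in the blood vessel and another at least 2-fold lower, and in 56 genes (3.85%) both differences reached 8-fold. When the isoforms of these 56 genes were summed, 23 genes were within 2-fold between the blood vessel and the head plus chaetae, 9 were 8-fold higher and 4 were 8-fold lower in the blood vessel. Isoforms of a gene share reads in the pseudo-alignment, so their estimates are not independent, and the part this has in the opposite differences was not tested. Transcripts of genes with several isoforms made up 27.0% of the higher and 31.1% of the lower transcripts, against 25.9% of all 17452.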

How the data were processed

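According to the labels and the study's methods, RNA was extracted from dissected tissues of adult worms and sequenced on a BGISEQ-500 platform at BGI. The authors trimmed the reads, pseudo-aligned them to their filtered gene models with kallisto and normalized the counts of the 9 adult libraries with DESeq2. The submitters' processing notes name kallisto 0.44.0, DESeq2 1.34.0 and R 4.1.2, while the methods name other versions of kallisto and DESeq2. The deposited values are a normalized signal per transcript and library, that is, an estimated read count over a library-wide size factor, and they are not divided by transcript length. The median ratio to the geometric mean over transcripts above 0 in every library was 0.967 in all 9 columns, as division by median-of-ratios size factors gives. The import of kallisto estimates into DESeq2 is not described in the sources used.

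The ratio was log2((blood vessel + 10)/(head plus chaetae + 10)) over transcripts of at least 50 in either library. A fold change on this scale understates the change of low transcripts. Each tissue had 1 library, so the ratios have no replicate check, and no test or p-value was computed. The worth of 1 read was fitted by least squares to the low values (20 reads or fewer). Whole reads, within 0.1 read, were recovered for 98.8% of these in the blood vessel and 99.8% in the head plus chaetae. The 95% counting intervals of a ratio are exact conditional binomial (Clopper-Pearson) intervals on the recovered reads and cover counting error only. Each of the other 7 libraries was placed between the blood vessel (position 1) and the head plus chaetae (position 0) on log2(value + 10), and lay on the blood vessel side above a position of 0.5.

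By the rule for named transcripts, the transcript with the largest absolute ratio and the one with the highest value in its own library were taken on either side, or the next highest value where these coincided. The comparison and its thresholds were chosen with earlier results of these data known. The alternatives were other pseudocounts, minimum values, folds and scales, isoforms summed per gene, the counting intervals, and a definition of the sides by a 2-fold limit. Rescaling the 8-fold counts to CPM after removal of 30 transcripts, each over 1% in some library, was chosen after seeing the data. So were following only transcripts of 200 or more, and giving positions, groups and abundant transcripts on CPM and on that reduced scale. The computation was tested on simulated data. Python 3.11.15 with numpy 2.4.6, pandas 2.3.3, scipy 1.17.1 and matplotlib 3.10.9 was used.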

Additional observations from a re-analysis of the deposited data

How the results depend on the processing

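Of the 1956 higher and 3662 lower transcripts, a pseudocount of 100 left 855 and 898. By construction, a fold of 4 gave 3394 and 5501 and a fold of 32 gave 697 and 1168. Under every other alternative tried for these counts (pseudocount 1, minimum values, both CPM scales, median-centring, summed isoforms and counting bounds) they stayed within 1.5 times. The median log2 ratio, -0.32, was -0.20 with a pseudocount of 100, -0.48 with a minimum of 20, 0.17 with a minimum of 200, -0.11 with no minimum, -0.67 on CPM (a shift of -0.35), -0.54 on CPM once the 30 largest transcripts (each over 1% in some library) were removed, -0.22 with isoforms summed and 0 after centring. Its sign thus depended on the minimum value. For the transcripts lower in the blood vessel, 4 of 7 libraries had a majority on the blood vessel side, and 7 did under the 2-fold definition. The other alternatives for the sides left 4, and 0 of 7 for the higher transcripts. On that reduced CPM scale, 55.3% of the higher transcripts had no library on their side, against 50.4%. Opposite isoforms at 4-fold were found in 121 genes, against 244 at 2-fold. With 1 library per tissue, no library could be left out within a group.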

Other observations

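Among the abundant transcripts of the blood vessel, a subset had small values in the testis that made up similar percentages of the blood vessel value. It was chosen after the values were seen. The 150 transcripts 8-fold higher in the blood vessel with at least 10000 there had between 0% and 971% of the blood vessel value in the testis, with quartiles of 3.20% and 5.87%. Of these, 53 were below 0.5% of the blood vessel value in the head plus chaetae as well as the 5 female libraries. In the testis these 53 had between 2.20% and 7.42% of the blood vessel value, with a median of 3.39% and quartiles of 3.08% and 3.95%. In the retractor muscle they had between 0.0289% and 3.85%, with a median of 0.901% and quartiles of 0.540% and 1.40%. In the head plus chaetae the median was 0.0361%, in the ovary 0.0320% and in the tail 0.0232%. The selection itself held these libraries below 0.5%, so their low values carry no further information. These percentages are on the deposited scale. On CPM the 53 transcripts had a median of 0.383% in the testis, between 0.248% and 0.839%, and of 0.221% in the retractor muscle, both medians being under the limit of 0.5% used for the other libraries. Once the 30 transcripts above 1% in some library were left out of the totals, both medians were above that limit. They were then 1.55% in the testis, between 1.01% and 3.40%, and 0.606% in the retractor muscle. What gives these values was not tested.

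The same selection on the opposite side gave a different picture. Of the 94 transcripts 8-fold lower in the blood vessel with at least 10000 in the head plus chaetae, 13 were below 0.5% of that value in the blood vessel and in the female libraries. In the retractor muscle they had a median of 565% of the head plus chaetae value, with quartiles of 0.519% and 716%, and in the testis a median of 0.0564% and a maximum of 7156%. On CPM the median in the retractor muscle was 114%, and 336% once the 30 transcripts above 1% in some library were left out of the totals. The highest of the 9 libraries was the retractor muscle for 7 of the 13 transcripts on the deposited scale and for 6 on CPM.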
